A study of Mus musculus with 9 samples.

Results

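The 9 genes of long-chain fatty acid and docosahexaenoic acid (DHA) handling that were followed in the retina were Elovl2, Elovl4, Fads1, Fads2, Acsl6, Lpcat1, Acot1, Mfsd2a and Adipor1. They were the rows of the deposited expression table that carry these symbols, 9 of 22337 genes, and each symbol matched 1 row. All 9 passed the filter on low counts in every comparison.

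DHA is the main polyunsaturated fatty acid of photoreceptor outer segment membranes. Cells build it from shorter precursors by alternating elongation and desaturation, or take it up from the blood as lysophospholipid. An acyl-CoA synthetase activates it and an acyltransferase places it in phospholipid. Very long-chain derivatives of such fatty acids are made in photoreceptors and are needed for outer segment structure.

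The retinas came from mice at P28, in 3 groups of 3 libraries. WT mice were C57 BL/6J and received no injection. NS mice were rd10 mice, which carry a mutation in Pde6b, the gene of a subunit of the rod phosphodiesterase, and lose their rods after eye opening. They received normal saline. MSC-EVs mice were rd10 littermates that received extracellular vesicles of human umbilical cord mesenchymal stem cells. Both rd10 groups were injected with 1 µl into both eyes at P14 and P21. WT mice differed from NS mice in genotype, breeding source and injection together, and these cannot be told apart. Whether a library held a single retina or several is not given in the sources used here, so p-values measure only the spread between libraries, which may be technical.

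Library totals lay between 19491741 and 62532365 estimated counts, with MSC-EVs replicate 3 the deepest. The 14 rod markers checked the tissue by their summed CPM, which are counts scaled to library size multiplied by the library's TMM factor. The TMM factors were 0.92 to 0.932 in WT and 1.03 to 1.05 in rd10. The summed level of the rod markers was 86295 to 92213 CPM in WT, 17920 to 25541 in NS and 18666 to 25652 in MSC-EVs. Genes of the Y chromosome had 733 to 1957 counts in MSC-EVs replicates 1 and 2 and at most 8 counts in the other 7 libraries, and the labels give no sex. Summed retinal pigment epithelium markers were 64.0 to 115 CPM in WT, but 328 in NS replicate 1, 222 in NS replicate 3 and 246 in MSC-EVs replicate 3. None of the checked marker genes was at 0 in any group.

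The level of each gene per transcript length is given as FPKM, which scales fragments to transcript length and library depth. In WT retina, Adipor1 (197 ± 5.02, mean and SD, n = 3) and Elovl4 (196 ± 1.66) stood highest and did not differ beyond their spread. Acsl6, Lpcat1, Fads2, Elovl2 and Fads1 followed in that order, from 64.5 down to 19.1 FPKM, with no overlap between neighbours. Mfsd2a (1.78) and Acot1 (0.973) were lowest, and the highest mean was 202 times the lowest. In NS retina the order changed in the middle, where Fads2 (50.2 FPKM) stood above Lpcat1 (36.6) and Fads1 (30.8) above Elovl2 (25.4). The span from highest to lowest mean was 17.9 times in NS and 38.9 times in MSC-EVs. In MSC-EVs retina, Fads2 and Lpcat1 overlapped, as did Fads1 and Elovl2.

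**Figure D1:**
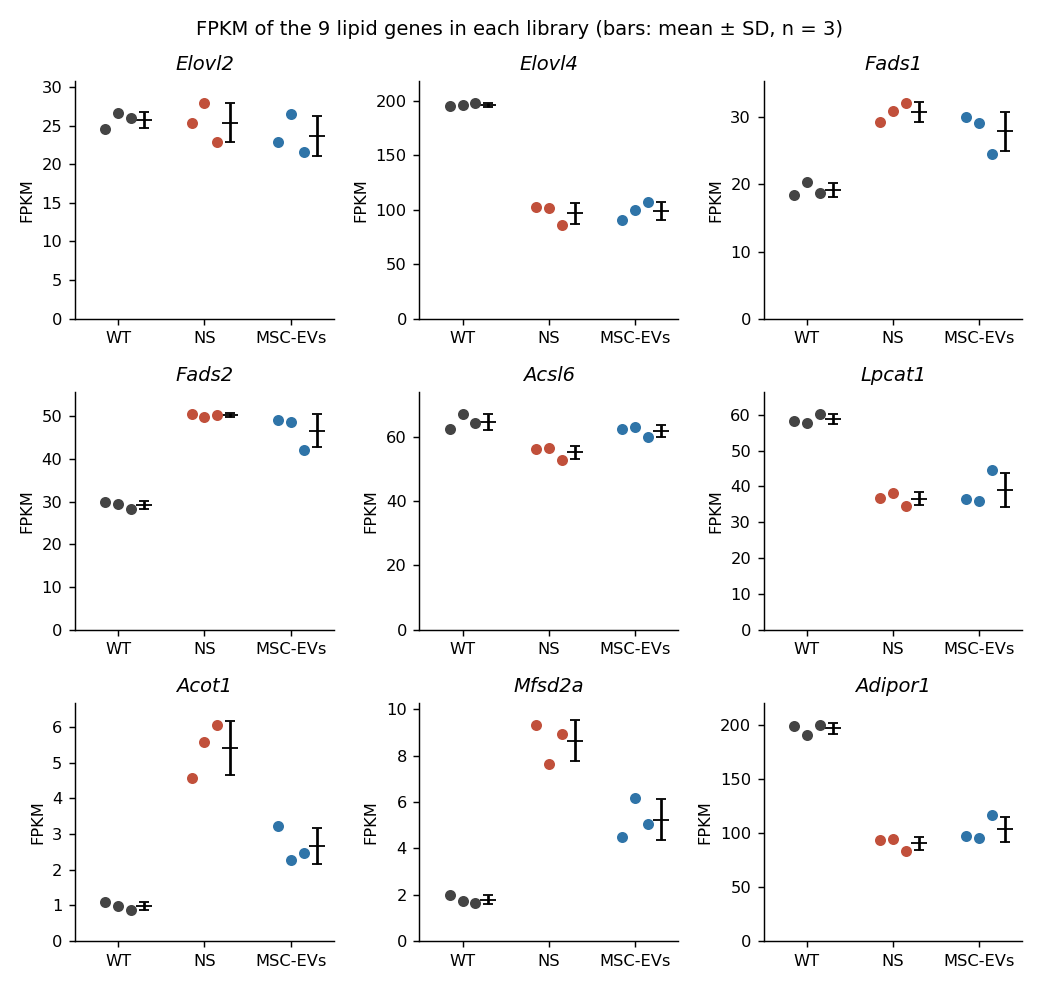
FPKM (vertical axes, each starting at 0) of the 9 genes in each library, with points for WT, NS and MSC-EVs libraries and bars for mean ± SD (n = 3). Elovl4, Adipor1 and Lpcat1 lie lower in all 6 rd10 libraries than in WT, Fads1, Fads2, Mfsd2a and Acot1 lie higher, and the MSC-EVs points of Mfsd2a and Acot1 lie between the other 2 groups.

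The comparison of NS with WT asks how the genes differ in the degenerating retina. Of the 9 genes, 4 were higher (31.1% of all 14644 genes tested were) and 5 were lower (30.1% of all genes were), by edgeR's quasi-likelihood test at a Benjamini-Hochberg adjusted p under 0.05. Mfsd2a, Acot1, Fads2 and Fads1 rose, and Adipor1, Elovl4, Lpcat1, Acsl6 and Elovl2 fell. In 4 genes, Mfsd2a, Acot1, Adipor1 and Elovl4, the log2 fold change also reached 1 in size, which 12.7% of all genes did. CPM values of the groups did not overlap for 8 of the 9, against 66.9% of all genes. The median log2 fold change was -0.20 over the 9 genes and 0.01 over all genes. In bulk tissue, fewer cells of a type and less RNA per cell cannot be told apart.

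The elongases differed from each other. Elovl4 makes the very long-chain fatty acids of photoreceptors and is the gene of a dominant macular dystrophy. It lies at chr9:83778692-83806277 on the minus strand (GENCODE M21, GRCm38). Its FPKM was 195.20, 195.65 and 198.27 in WT, 102.12, 101.85 and 85.84 in NS, and 90.57, 99.59 and 106.74 in MSC-EVs. All 6 rd10 libraries lay at or below 106.74 FPKM, with no overlap with WT. The log2 fold change in NS against WT was -1.20 ± 0.07 (SE), a 2.30-fold lower level (edgeR adjusted p = 5.82e-08).

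Elovl2, which elongates DHA precursors, lies at chr13:41182381-41220405 on the minus strand. Its FPKM was 24.60, 26.66 and 26.06 in WT, 25.36, 27.99 and 22.85 in NS, and 22.84, 26.53 and 21.58 in MSC-EVs, and the 3 groups overlapped. On TMM-scaled counts, NS differed from WT by -0.20 ± 0.07 on the log2 scale (edgeR adjusted p = 0.0316), with overlapping CPM values. This small difference passed the test in 8 of 16 alternatives, and with NS replicate 2 as the lone NS library, after leaving out those high in pigment epithelium markers, it was -0.07. The 2 scales differ in their centre: over all genes, the median log2 fold change in NS against WT was 0.137 on log2(FPKM + 1), where Elovl2 had -0.02. The FPKM ratio of Elovl4 to Elovl2 was 7.63 ± 0.299 in WT, 3.81 ± 0.199 in NS and 4.22 ± 0.636 in MSC-EVs (SD, n = 3).

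The desaturases rose together by a moderate amount. Fads1 and Fads2 introduce unsaturated bonds into DHA precursors and are neighbours on mouse chromosome 19, transcribed away from each other, at chr19:10182888-10196877 on the plus strand and chr19:10062765-10101746 on the minus strand, with 81141 bases between them. Fads1 FPKM was 18.40, 20.31 and 18.71 in WT, 29.27, 30.93 and 32.18 in NS, and 30.02, 29.13 and 24.60 in MSC-EVs. Fads2 FPKM was 29.90, 29.54 and 28.17 in WT, 50.59, 49.76 and 50.37 in NS, and 49.04, 48.56 and 42.13 in MSC-EVs. All rd10 libraries were above all WT libraries for both genes, and MSC-EVs replicate 3 was the lowest of the rd10 libraries. In NS against WT the log2 fold change was 0.52 ± 0.06 for Fads1 (edgeR adjusted p = 1.33e-05) and 0.60 ± 0.05 for Fads2 (edgeR adjusted p = 1.19e-06). The ratio of Fads2 to Fads1 FPKM stayed between 1.45 and 1.73 in all 9 libraries.

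Acsl6 and Lpcat1 activate long-chain fatty acids and place them in phospholipid. Acsl6, the acyl-CoA synthetase that enriches DHA in neural membranes, lies at chr11:54303798-54364756 on the plus strand. Its FPKM was 62.31, 67.17 and 64.15 in WT, 56.20, 56.43 and 52.92 in NS, and 62.43, 63.18 and 59.82 in MSC-EVs. NS lay below WT in all libraries, and differed by -0.33 ± 0.05 on the log2 scale (edgeR adjusted p = 0.000156), while MSC-EVs overlapped WT in FPKM. An antisense gene, Gm12224, overlaps Acsl6, and whether counting used strand is not given in the sources used here.

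Lpcat1, an acyltransferase that remodels phosphatidylcholine and whose loss causes photoreceptor degeneration in mice, lies at chr13:73467197-73516422 on the plus strand. Its FPKM was 58.16, 57.64 and 60.26 in WT, 36.90, 38.29 and 34.58 in NS, and 36.56, 35.93 and 44.49 in MSC-EVs. No rd10 library reached the WT range, and MSC-EVs replicate 3 was the highest of them. The log2 fold change in NS against WT was -0.85 ± 0.06, a 1.81-fold lower level (edgeR adjusted p = 1.74e-07).

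Adipor1, a membrane receptor for adiponectin that is needed for normal retinal DHA content, lies at chr1:134415378-134433351 on the plus strand. Its FPKM was 199.13, 190.89 and 199.97 in WT, 93.86, 94.18 and 83.66 in NS, and 97.27, 95.71 and 116.82 in MSC-EVs. The groups did not overlap, and MSC-EVs replicate 3 was again the highest rd10 library. Adipor1 fell more than any other of the 9 genes in NS against WT, by a log2 fold change of -1.30 ± 0.07, a 2.46-fold lower level (edgeR adjusted p = 1.48e-08).

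The bases before the start of the 3 genes that fell by most are shown because these genes were lower than WT in all 6 rd10 libraries. They are the 250 bases before the RefSeq start (build GRCm38.p6), written 5′ to 3′ on the gene's strand: chr9:83806306-83806555 on the minus strand, chr13:73466981-73467230 on the plus strand and chr1:134415128-134415377 on the plus strand. Capitals mark matches, on either strand, to any of 5 short motifs: the CRX/OTX core TAATCC, the nuclear receptor motif AGGTCA, the E-box CACGTG, the sterol response element TCACNCCAC and the GC box GGGCGG.
Elovl4: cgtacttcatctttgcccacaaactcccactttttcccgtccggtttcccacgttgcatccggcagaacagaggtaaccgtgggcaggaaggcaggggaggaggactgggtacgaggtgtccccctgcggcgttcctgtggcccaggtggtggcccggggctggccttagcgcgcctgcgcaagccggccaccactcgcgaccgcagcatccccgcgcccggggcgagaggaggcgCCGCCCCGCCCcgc
Lpcat1: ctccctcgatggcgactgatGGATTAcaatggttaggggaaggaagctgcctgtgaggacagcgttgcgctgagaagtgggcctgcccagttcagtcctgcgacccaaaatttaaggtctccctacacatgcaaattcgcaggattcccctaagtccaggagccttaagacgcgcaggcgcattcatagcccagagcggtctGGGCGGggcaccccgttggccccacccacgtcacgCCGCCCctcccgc
Adipor1: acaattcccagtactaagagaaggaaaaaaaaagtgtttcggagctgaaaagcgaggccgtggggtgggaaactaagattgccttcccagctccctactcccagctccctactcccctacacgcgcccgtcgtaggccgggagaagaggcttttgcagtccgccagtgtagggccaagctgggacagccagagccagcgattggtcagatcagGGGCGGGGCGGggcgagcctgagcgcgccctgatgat
The RefSeq start lies 28 bases before the GENCODE start for Elovl4, 34 bases after it for Lpcat1, and at it for Adipor1. The CRX/OTX core, the motif of a photoreceptor transcription factor, occurs in the Lpcat1 window and in none of the other windows of the set. The Elovl4 and Adipor1 windows each hold 2 GC boxes that overlap.

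Mfsd2a carries lysophosphatidylcholine with DHA into the retina and brain across vascular endothelium and pigment epithelium. It lies at chr4:122946850-122961188 on the minus strand. Its FPKM was 1.99, 1.73 and 1.63 in WT, 9.33, 7.66 and 8.95 in NS, and 4.48, 6.19 and 5.05 in MSC-EVs. The 3 groups did not overlap. It rose more than any other of the 9 genes in NS against WT, by 2.06 ± 0.13 on the log2 scale, a 4.17-fold higher level (edgeR adjusted p = 6.41e-08). These values rest on 76 to 89 counts per library in WT and 192 to 648 in rd10.

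Markers of the cells that express Mfsd2a were counted beside it. Of 11 endothelium and pericyte markers, 7 rose and 1 fell in NS against WT, and their summed level was 382 to 391 CPM in WT, 597 to 603 in NS and 516 to 627 in MSC-EVs. Of 10 pigment epithelium markers, 4 rose and 0 fell, where 31.1% of all genes rose and 30.1% fell. NS replicate 2 had a pigment epithelium sum of 81.7 CPM, within the WT range, and a Mfsd2a level of 14.2 CPM, against 3.80 to 3.98 CPM in WT. With NS replicates 1 and 3 left out, the log2 difference was 1.85, a value of 1 NS library against 3 WT libraries with no replicate in the NS arm. The parts of endothelium and of pigment epithelium in the difference over all 3 NS libraries were not tested.

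Acot1 encodes a cytosolic thioesterase that releases fatty acids from acyl-CoA and is a known target of PPARalpha. It lies at chr12:84009490-84018371 on the plus strand, 15616 bases from its paralog Acot2, and 19.2% of its 50-base stretches also occur in other genes, among them Acot2, so its counts are uncertain. Its FPKM was 1.08, 0.98 and 0.86 in WT, 4.57, 5.58 and 6.06 in NS, and 3.23, 2.27 and 2.47 in MSC-EVs, with no overlap between the groups. The log2 fold change in NS against WT was 1.62 ± 0.17 (edgeR adjusted p = 6.20e-06), from 40.8 to 59.0 estimated counts per library in WT. With Acot1 and Acot2 summed it was 1.36 (edgeR adjusted p = 3.68e-06), and on log2(FPKM + 0.1) it was 2.35. The FPKM ratio of Acot1 to Acot2 was 1.23 ± 0.704 in WT, 2.60 ± 0.276 in NS and 1.51 ± 0.335 in MSC-EVs (SD, n = 3). This ratio also depends on the transcript length behind FPKM, which CPM does not use. Mean CPM of Acot1 and Acot2 were 2.36 and 2.17 in WT, 7.32 and 4.35 in NS, and 4.53 and 3.77 in MSC-EVs.

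The bases before the RefSeq start of the 2 genes that rose by most, and whose MSC-EVs levels lay between the other groups, are shown in the same way. They lie at chr4:122961189-122961438 on the minus strand and chr12:84009252-84009501 on the plus strand, and the capitals mark the same 5 motifs.
Mfsd2a: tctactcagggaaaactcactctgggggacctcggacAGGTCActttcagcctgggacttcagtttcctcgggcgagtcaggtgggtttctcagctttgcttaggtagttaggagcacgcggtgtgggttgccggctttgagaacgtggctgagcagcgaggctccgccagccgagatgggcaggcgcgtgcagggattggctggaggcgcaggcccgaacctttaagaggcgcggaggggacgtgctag
Acot1: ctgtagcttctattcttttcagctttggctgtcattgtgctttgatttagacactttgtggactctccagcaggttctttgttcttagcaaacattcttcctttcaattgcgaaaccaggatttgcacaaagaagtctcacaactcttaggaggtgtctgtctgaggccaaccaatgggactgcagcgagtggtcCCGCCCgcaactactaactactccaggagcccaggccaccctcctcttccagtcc
The Mfsd2a window holds 1 nuclear receptor motif and the Acot1 window 1 GC box. Of the 9 genes, 8 matched an entry with such a window and Fads1 did not. Where a gene had several starts, the one closest to the GENCODE start was taken. The RefSeq start of Fads2 lies 243 bases inside the GENCODE gene. Most of the Fads2 window, with its GC box at -186, is therefore within the annotated gene. Over the 8 windows, the GC box occurred in 7 (32.7% of all 32851 windows), the nuclear receptor motif in 2, Mfsd2a and Acsl6 (14.0%), the CRX/OTX core in 1 (6.25%), the E-box in 0 (6.02%) and the sterol response element in 0 (1.05%). A match is a match of letters only.

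**Figure D2:**
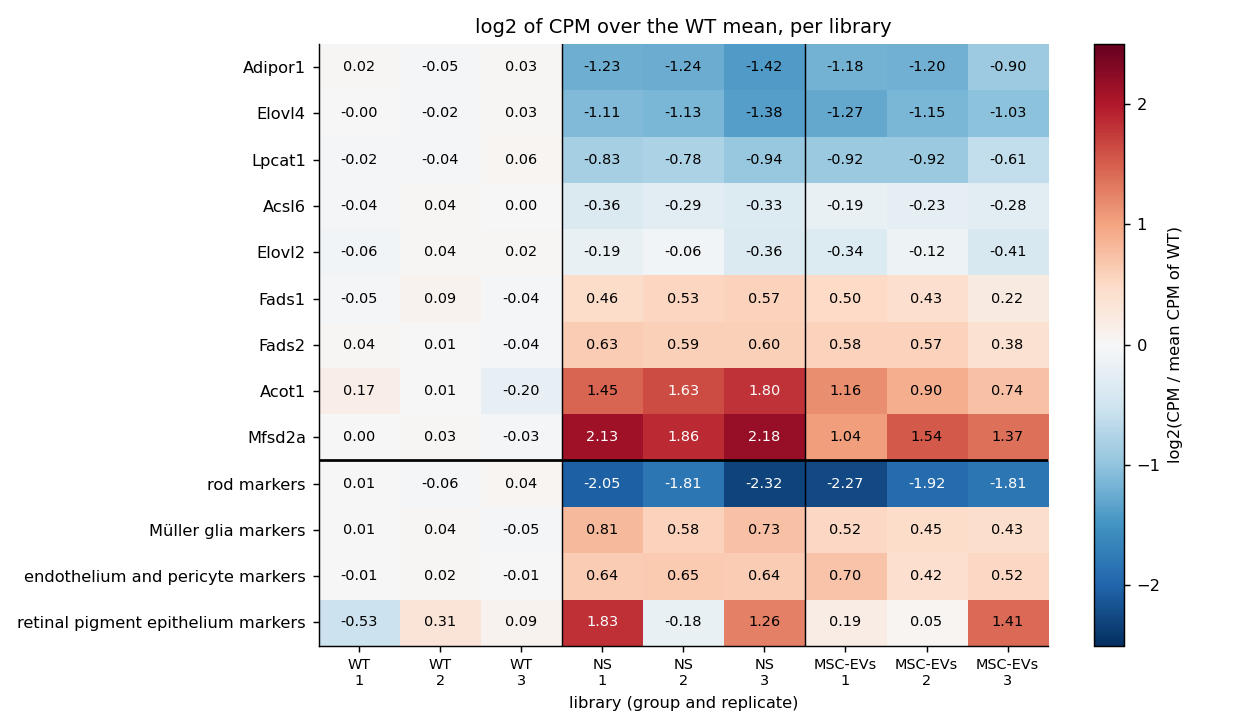
Each cell gives the log2 ratio of a library's CPM to the mean CPM of WT, for the 9 genes (upper rows) and for the summed CPM of 4 marker lists (lower rows), with libraries as columns. Among rd10 libraries, NS replicate 3 has the lowest values of Adipor1 (-1.42), Elovl4 (-1.38) and rod markers (-2.32). MSC-EVs replicate 3 has the highest Adipor1 (-0.90) and Elovl4 (-1.03). Its rod markers (-1.81) match those of NS replicate 2 (-1.81), which has Adipor1 at -1.24 and Elovl4 at -1.13.

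Markers of several cell types differed between the same groups, where 31.1% of all genes tested rose and 30.1% fell in NS against WT. All 14 rod markers fell in NS against WT (median log2 fold change -1.74). Elovl4, Adipor1 and Lpcat1 fell by less than this median. Of 10 Müller glia markers, 9 rose, with a summed level of 5037 to 5361 CPM in WT, 7820 to 9121 in NS and 7036 to 7480 in MSC-EVs. All 11 microglia and macrophage markers rose, from a sum of 41.7 to 46.1 CPM in WT to 320 to 404 in NS and 274 to 496 in MSC-EVs. Of 10 amacrine and horizontal markers 9 rose and 0 fell, and of 9 retinal ganglion markers 5 rose and 0 fell. Cone markers were divided, with 3 of 10 higher and 3 lower, as were bipolar markers, with 4 of 10 higher and 2 lower. The part of these cells in the lipid gene differences was not tested.

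The genes most like each member were found by Pearson's r of log2 CPM over the 9 libraries, with r after removal of group means in brackets. The 9 points form 3 groups and share libraries and depth, so r is a description. Elovl4 was most like Tulp1 (0.999 [0.977]), Cngb1 and Klhl18, Adipor1 most like Gucy2f (0.998 [0.939]), Fam149a and Rdh12, and Lpcat1 most like Jag1 (0.998 [0.976]), Bbs2 and Nxnl1. Cngb1, Gucy2f, Rdh12 and Tulp1 are photoreceptor genes. Fads2 was most like Kctd12 (0.998 [0.983]), Spon1 and Pkia, and Fads1 most like Shc1 (0.989 [0.966]), Itm2b and Aph1a. For Mfsd2a the closest were Hrh3 (0.993 [0.703]), Nbl1 and Prkag3, for Acot1 Asph (0.998 [0.973]), Dnajb9 and Cbln1, for Acsl6 Lztfl1 (0.990 [0.876]), Zzz3 and Supt20, and for Elovl2 Ddx11 (0.973 [0.952]), Nipal1 and Otud7b.

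The comparison of MSC-EVs with NS asks how treated and saline rd10 retinas differed, and it shares the NS libraries with the comparison above. Y-linked genes had 733 to 1957 counts in MSC-EVs replicates 1 and 2 and at most 8 in the NS libraries. Treatment and the Y-linked difference are therefore partly confounded and cannot be fully told apart. None of the 9 genes passed edgeR's test at an adjusted p under 0.05, 0 higher and 0 lower, where 0.914% of all 14765 genes tested were higher, 0.251% were lower and 0.061% also reached a log2 fold change of 1 in size. At an unadjusted p under 0.05 there were 3, Mfsd2a, Acot1 and Adipor1, where 20.2% of all genes were. DESeq2's Wald test called 2, where it called 6.3% of all genes, and limma on log2(FPKM + 1) called 2, where it called 1.2%, in both cases Mfsd2a and Acot1. CPM values of the groups did not overlap for 5 of the 9 genes (Mfsd2a, Acot1, Adipor1, Fads2 and Acsl6), against 26.3% of all genes.

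Mfsd2a had 16.3 ± 1.86 CPM in NS and 9.81 ± 1.66 CPM in MSC-EVs (SD, n = 3). The log2 fold change was -0.72 ± 0.15, with a 95% interval from -1.05 to -0.39 (edgeR adjusted p = 0.0521), and all 3 MSC-EVs libraries were below all 3 NS libraries. It passed in 8 of 18 alternatives, with adjusted p-values from 0.00168 to 0.356 over all of them. It passed with MSC-EVs replicate 2 left out (edgeR adjusted p = 0.0182). With any other single library left out it did not pass (edgeR adjusted p = 0.0762 to 0.234). With MSC-EVs replicate 3, the 1 MSC-EVs library lacking Y-linked counts, against the 3 NS libraries the log2 difference was -0.68. Against NS replicate 2 alone, with MSC-EVs replicates 1 and 2, the libraries with low pigment epithelium markers, it was -0.55. Each of these last 2 values has an arm of 1 library, which is assumed to vary like the other group in any test of it.

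Acot1 had 7.32 ± 0.869 CPM in NS and 4.53 ± 0.678 CPM in MSC-EVs. The log2 fold change was -0.69 ± 0.17, with a 95% interval from -1.08 to -0.30 (edgeR adjusted p = 0.0803), and again all 3 MSC-EVs libraries were below all 3 NS libraries. It passed in 4 of 19 alternatives, with adjusted p-values from 0.0257 to 0.349. Summed with Acot2 it had -0.49 (edgeR adjusted p = 0.0870), and Acot2 alone had -0.20 (edgeR adjusted p = 0.532).

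The other 7 genes had small differences between the rd10 groups. Adipor1 had a log2 fold change of 0.22, with a 95% interval from 0.00 to 0.43 (edgeR adjusted p = 0.242). MSC-EVs replicate 3, at 363 CPM, stood apart from replicates 1 and 2, at 299 and 294. Replicate 3 is the MSC-EVs library lacking Y-linked counts. With Y-linked expression as a covariate, which is high only in replicates 1 and 2, the Adipor1 log2 fold change was 0.41. With replicate 3 alone against the 3 NS libraries it was also 0.41. The covariate fit therefore rests mainly on replicate 3. The intervals ran from -0.30 to 0.13 for Elovl2, -0.14 to 0.26 for Elovl4, -0.31 to 0.05 for Fads1, -0.24 to 0.06 for Fads2, -0.03 to 0.23 for Acsl6 and -0.16 to 0.26 for Lpcat1. The summed rod markers of the 2 rd10 groups overlapped, and 0 of 14 rod markers passed the test (median log2 fold change 0.01). Of the 10 Müller glia markers 1, Car14, fell (median -0.17), and all 3 MSC-EVs sums lay below all 3 NS sums. Of 10 bipolar markers 2 fell (median -0.06), and of 10 cone markers 0 passed (median -0.27). The summed cone markers did not overlap either, at 1420 to 1608 CPM in MSC-EVs and 1651 to 1724 in NS. The part of glia or of other cells in the lower Mfsd2a and Acot1 values was not tested.

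**Figure D3:**
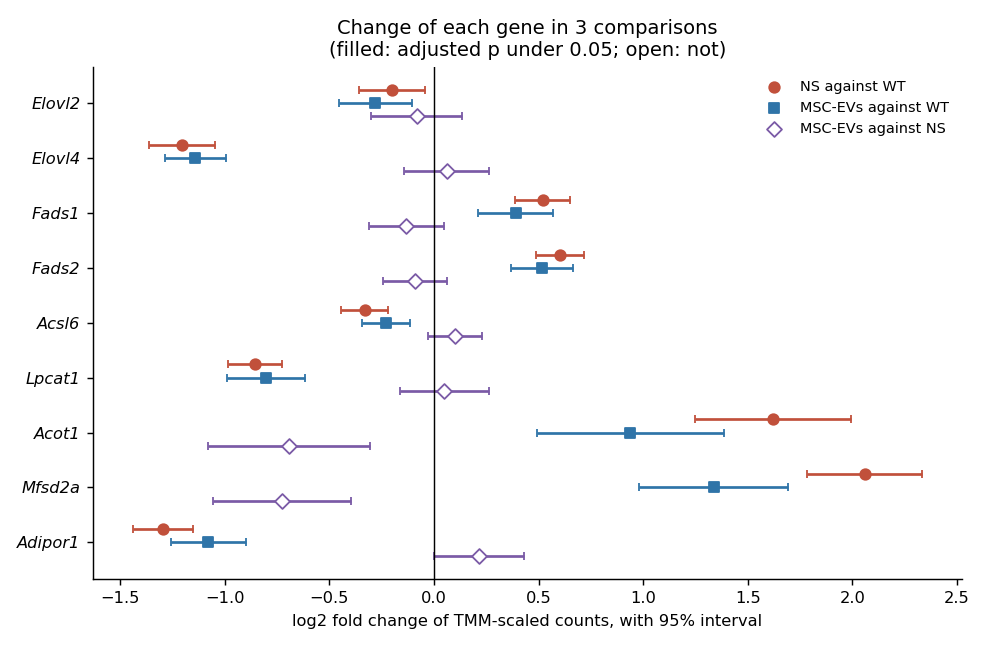
Log2 fold change (horizontal axis, with 95% interval) of the 9 genes in NS against WT (circles), MSC-EVs against WT (squares) and MSC-EVs against NS (diamonds), filled where the adjusted p is under 0.05. All circles and squares are filled and no diamond is, and the diamonds farthest from 0 are Mfsd2a (-0.72) and Acot1 (-0.69).

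In MSC-EVs against WT, which shares libraries with both other comparisons, 4 genes were higher (28.3% of all 14623 genes tested were) and 5 lower (27.2% were), and 3 also reached a log2 fold change of 1 in size (12.2% of all genes did). CPM values of the groups did not overlap for all 9 genes, against 65.2% of all genes. The log2 fold change was 1.34 for Mfsd2a (edgeR adjusted p = 8.93e-05), beside 2.06 in NS against WT, and 0.94 for Acot1 (edgeR adjusted p = 0.00290), beside 1.62. For Adipor1 it was -1.08 (edgeR adjusted p = 5.44e-06), beside -1.30, and for Elovl4 -1.14 (edgeR adjusted p = 1.06e-06), beside -1.20. Lpcat1 had -0.80, Acsl6 -0.23, Elovl2 -0.28, Fads1 0.39 and Fads2 0.52, with edgeR adjusted p-values from 4.91e-05 to 0.0120. On FPKM, Acsl6 and Elovl2 overlapped WT, and limma on log2(FPKM + 1) did not call them (adjusted p = 0.338 and 0.228).

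The paralogs of the members did not follow them in every case. Elovl5, which elongates shorter polyunsaturated precursors, rose by a log2 fold change of 1.12 ± 0.06 in NS against WT, and Fads3, the neighbour of Fads2, by 0.96 ± 0.08. Lpcat3, an acyltransferase that favours polyunsaturated chains, rose by 1.21 ± 0.09 (edgeR adjusted p = 3.89e-07), the opposite direction to Lpcat1. Adipor2 fell by 0.34 on the log2 scale, and Acot2 rose by 1.00 ± 0.25. None of these 5 passed in MSC-EVs against NS, where their edgeR adjusted p-values were 0.114 to 0.813. At an unadjusted p under 0.05 there was 1, Elovl5 (log2 fold change -0.25).

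Other genes of the pathway were counted in 8 lists that leave out the 9 members. Beside them, 31.1% of all genes tested rose and 30.1% fell in NS against WT (median log2 fold change 0.01). In acyl-CoA elongation and desaturation, 6 of 15 tested genes rose and 3 fell in NS against WT (median log2 fold change 0.17). Hacd4, a dehydratase of the elongation cycle, rose by 1.37, and its relative Hacd2 fell by 0.38 on the log2 scale. In peroxisomal chain shortening, the last step of DHA synthesis, 3 of 10 rose and 1 fell (median 0.04), with Ehhadh at 0.52 and Acaa1a at -0.29. Of 14 acyl-CoA synthetases and fatty acid transport genes, 7 rose and 1 fell (median 0.30), with the transporter Slc27a6 at 1.23 and the synthetase Acsl1 at -0.49. Of 16 acyltransferases and phospholipases, 8 rose and 3 fell (median 0.23). Agpat3, which had the highest level of this list in WT (2155 CPM) and places DHA in phospholipid precursors, fell by 1.48 on the log2 scale (edgeR adjusted p = 1.09e-08), and the summed level of the list was 2964 to 3050 CPM in WT and 1489 to 1632 in NS.

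Among the transcription factors more genes fell than rose. Of 9 tested thioesterases, 3 rose and 1, Acot13 (-0.20), fell, where 31.1% of all genes rose and 30.1% fell. Of 4 adiponectin system genes, Cdh13, the T-cadherin that binds adiponectin, rose by 1.47, and 2 fell. Of 11 lipid transcription factors, 1 rose and 6 fell (median -0.26). Ppara, the receptor that controls fatty acid oxidation genes, fell by 1.90 on the log2 scale (edgeR adjusted p = 1.26e-06), from 13.2 to 3.52 CPM, and Mlxipl rose by 2.39 at under 1 CPM. Of 13 PPARalpha targets, 4 rose and 6 fell (median -0.27), with Pdk4, which restrains glucose oxidation, at 1.41 and Cpt1b, which carries fatty acids into mitochondria, at -1.41. In MSC-EVs against NS, 1 gene of the 8 lists passed, Acot11, at -0.62 ± 0.12 on the log2 scale (edgeR adjusted p = 0.0464). It was 1 of 9 tested thioesterases, and no tested gene of the other lists passed. Of all genes tested in that comparison, 0.914% were higher and 0.251% were lower.

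**Figure D4:**
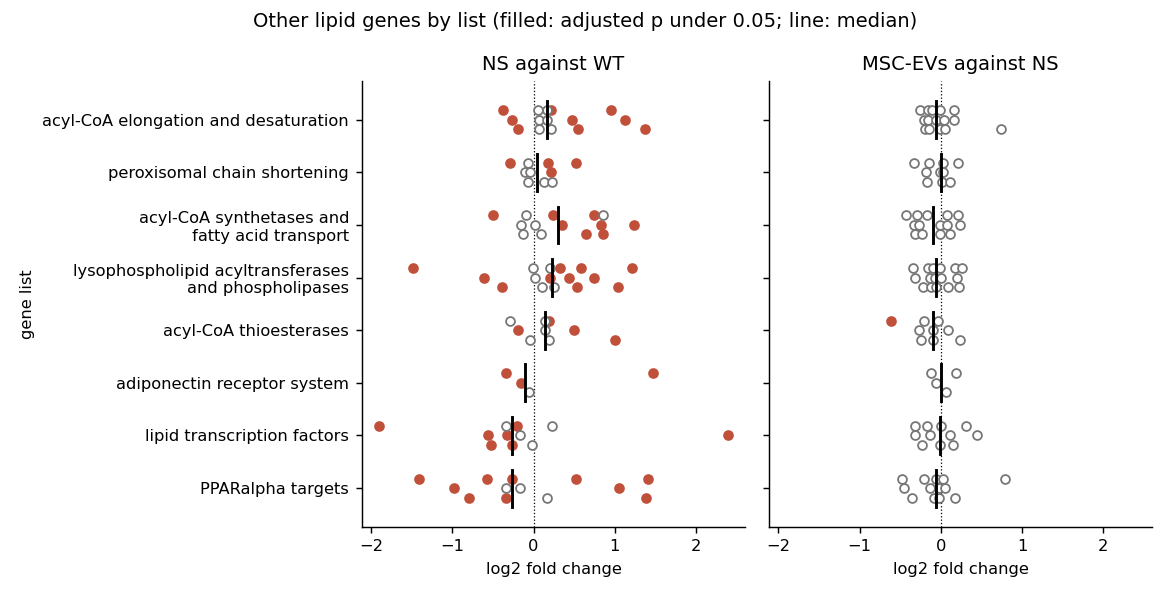
Log2 fold change (horizontal axes) of every tested gene of the 8 lipid lists in NS against WT (left) and MSC-EVs against NS (right), filled where the adjusted p is under 0.05, with a line at each list's median. On the left, medians run from -0.27 to 0.30 and Agpat3, Ppara and Mlxipl lie far from 0, and on the right 1 gene, Acot11, is filled.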

How the data were processed

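RNA-seq was measured in 9 retinal libraries. According to the submitters' processing notes, fastp, Bowtie2, HISAT2, StringTie 1.3.1 and RSEM were used, and the genome build is not given in the sources used here. The authors deposited an estimated count for each gene and library, which is an expected count not scaled to depth. They also deposited FPKM values, scaled by the authors to the length of the transcript and the depth of the library. The design allowed for whole counts, and since 9.16% to 11.7% of genes carried decimals, the estimated counts were rounded. The study names no RNA-seq test.

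For every comparison, the 6 libraries of the groups concerned were fitted alone by edgeR's quasi-likelihood method (version 4.0.16, run in R 4.3.3, with filterByExpr, TMM factors and robust dispersions), with Benjamini-Hochberg adjustment over all genes tested. Differences passed at an adjusted p under 0.05, and differential expression also needed a change of 1 or more, up or down, on the log2 scale. The SE is the log2 fold change over the square root of F. The steps were tested on simulated data. Alternatives used DESeq2 1.42.0, limma 3.58.1 on log2(FPKM + 1) and log2(FPKM + 0.1), other scalings and filters (none, or a minimum of 10 counts throughout), a joint fit of all 9 libraries, a replicate block, the Y-linked counts, and each library left out. After the values were seen, the libraries high in pigment epithelium markers were left out, and Acot1 and Acot2 were summed. Precision is limited by 3 libraries per group.

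Named genes were the 9 members, their closest paralogs, the largest rise and fall of each list in NS against WT, list genes passing in MSC-EVs against NS, reference markers and the 3 genes most like each member. Any other gene was named after its values were seen. Results for 1 reference marker are not reported here. The members and lists were chosen with earlier results of these data known. Positions and shared 50-base stretches came from GENCODE M21 on GRCm38, and sequences from RefSeq (GRCm38.p6). Motifs were searched on both strands of the 250 bases before each start.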

Additional observations from a re-analysis of the deposited data

How the results depend on the processing

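In NS against WT, 8 of the 9 genes kept their direction and call in every alternative, and Elovl2 lost its call in 8 of 16 (log2 fold change -0.27 to -0.02). It was lost with upper-quartile factors, all libraries in one fit, limma on either FPKM scale, without WT replicate 2, WT replicate 3 or NS replicate 3, and without the libraries high in pigment epithelium markers, which leaves 1 NS library. In MSC-EVs against WT, Elovl2 lost its call in 4 of 18 and Acsl6 in 2 of 18. No called value changed direction.

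Differentially expressed genes numbered 1864 in NS against WT and 985 with limma on log2(FPKM + 1), and 1784 in MSC-EVs against WT and 1002 with limma. In MSC-EVs against NS they numbered 9, with 33 by DESeq2's Wald test, 38 with all 9 libraries in one fit, 28 with Y-linked expression as a covariate, 85 on the libraries lacking Y-linked counts (MSC-EVs replicate 3 alone) and 33 without the libraries high in pigment epithelium markers (NS replicate 2 alone). Both of the last settings leave an arm of 1 library, assumed to vary like the other group. The Y-linked covariate is high only in MSC-EVs replicates 1 and 2, so the fit with it also rests mainly on MSC-EVs replicate 3. With single libraries left out they ran from 0 to 82 (0 without NS replicate 3, with 99 at an unadjusted p, and 0 without MSC-EVs replicate 1, with 102, and 82 without MSC-EVs replicate 2). Genes passing the adjusted p alone were 172, with 930 by Wald test, 1026 in one fit, 295 on the libraries lacking Y-linked counts, 58 without the libraries high in pigment epithelium markers and 0 to 676 with single libraries left out. Of the 9 genes 0 passed, with 2 by Wald test, in one fit and on both FPKM scales, 1 with upper-quartile factors or no filter, and 0 to 1 with single libraries left out. The cause of these changes was not tested.

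Correlations of same-numbered deviations were -0.0565 to 0.0266 in NS against WT, 0.0954 to 0.264 in MSC-EVs against NS and 0.0241 to 0.0846 in MSC-EVs against WT. Differently numbered libraries were not correlated for comparison, so these values cannot decide whether the replicate numbers pair the samples. With a replicate block, 21 genes were differentially expressed in MSC-EVs against NS, 403 passed the adjusted p and 1 of the 9 genes, Mfsd2a, passed. Depth limits Mfsd2a and Acot1, which had fewer than 100 counts in each WT library.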

Other observations

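The pathway column of the deposited table was read after the values were seen, so its lists overlap those above and are a description. It places 35 genes in the KEGG pathway of unsaturated fatty acid synthesis, 5 of them among the 9 genes described here. Of 27 tested in NS against WT, 12 rose, among them the stearoyl-CoA desaturases Scd1 and Scd2 and the elongase Elovl1, and 6 fell, among them Hacd3 and Tecr of the elongation cycle, where 31.1% of all genes rose and 30.1% fell (median log2 fold change 0.20, against 0.01 over all genes). In MSC-EVs against NS, 0 of 27 passed edgeR's test (median log2 fold change -0.13). For fatty acid elongation, 8 of 25 tested genes rose and 9 fell in NS against WT, shares near those of all genes (median 0.07), and 0 of 25 passed in MSC-EVs against NS.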
